A study of Rattus norvegicus with 18 samples.

Results

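The genes described here build and run the lysosome and the autophagosome, measured in NRK-52E cells, an established epithelial line from rat kidney, after exposure to aristolochic acid. A fixed list of 38 genes was used. For each gene, the probe set annotated with that symbol alone and with the highest mean over the 18 arrays stood for it. A probe set was found for 35 of the 38 genes, out of 14218 genes in all, and Npc1, Map1lc3b and Gabarapl2 were not analysed here. The list holds 23 lysosomal genes, 14 autophagosome genes and the regulator Tfeb. Of the 35 genes, 31 reached a log2 signal of 4 on at least 3 arrays and were tested, namely 4 genes of lysosomal membrane proteins, 14 of lysosomal lumen proteins, 12 autophagosome genes and Tfeb. The other 4, Cln3, Ctsc, Ctsh and Ctsz, had group means between 2.06 and 2.39 in all 6 groups, the dim end of the array.

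Confluent cultures of the line, which the labels assign to the Osborne-Mendel strain, received either 1.65 μM aristolochic acid (AA) in 0.1% DMSO or 0.1% DMSO alone. RNA of the whole culture was taken at 6, 24 or 72 h, with 3 arrays for each of the 6 combinations. The labels call the 3 arrays of a group biological replicates without saying whether they came from separate passages, so the tests measure the spread between these arrays. All values are the authors' normalized log2 signals (GCRMA), in which 1 unit is a doubling. Levels were not compared between probe sets of different genes, except where the signals of cell type markers were summed.

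Lysosomes are acidic compartments in which hydrolases degrade proteins, glycans and lipids. A proton pump acidifies them, highly glycosylated membrane proteins line them, and most of their enzymes arrive by the mannose 6-phosphate route. In macroautophagy, the ULK1 kinase complex and the Beclin 1 lipid kinase complex start a membrane, conjugation enzymes attach proteins of the LC3 and GABARAP families to it, and receptors such as p62 load cargo. The closed autophagosome then fuses with a lysosome. TFEB and its relatives TFE3 and MITF are transcription factors that bind a CACGTG-containing element upstream of many of these genes, and the mTORC1 kinase restrains them. Proximal tubule cells rely on this system to break down the protein they reabsorb.

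The arrays of a group were close to each other, with correlations over all probe sets between 0.996 and 0.999 and a median replicate SD of 0.111. The array labelled AA 6 h replicate 3 stood apart from its group on the fourth principal component (4.89% of the variance), at -26.48 against -6.63 and -8.92. The members called at 6 h are therefore described with and without it. The 6 h results of pathway genes outside the member list are with all arrays unless stated. Of the 6 epithelial markers, Krt8 and Tjp1 had group means between 12.71 and 14.13, whereas Cdh1, Epcam, Krt18 and Cldn1 lay between 2.31 and 3.01. Of the 9 proximal tubule markers, 7, Lrp2 and Cubn among them, lay between 1.93 and 2.64. Of the 7 leukocyte markers, 6 lay between 2.03 and 2.77, and Cd14 at 11.2 or above in every group. The fibroblast genes Col1a1, Col1a2, Col3a1 and Acta2 lay between 7.48 and 14.64, and Pdgfra and Pdgfrb between 1.86 and 3.83.

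With aristolochic acid, 7 of 18 lysosomal genes fell at 6 h and none rose (1 was higher at an unadjusted p under 0.05), and of the 12 autophagosome genes 2 fell and 1 rose, beside 12.4% lower and 12.1% higher over all genes tested. The test made no call among the members at 24 h. At 72 h, 8 lysosomal genes rose and 1 fell, while 5 autophagosome genes rose and 2 fell, beside 27.4% higher and 19.8% lower over all genes. Calls here and below are from limma with Benjamini-Hochberg adjustment over the 9016 genes tested, at an adjusted p under 0.05. In AA comparisons, rose and fell mean higher or lower than in DMSO at the same time, not a change over time.

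**Figure D1:**
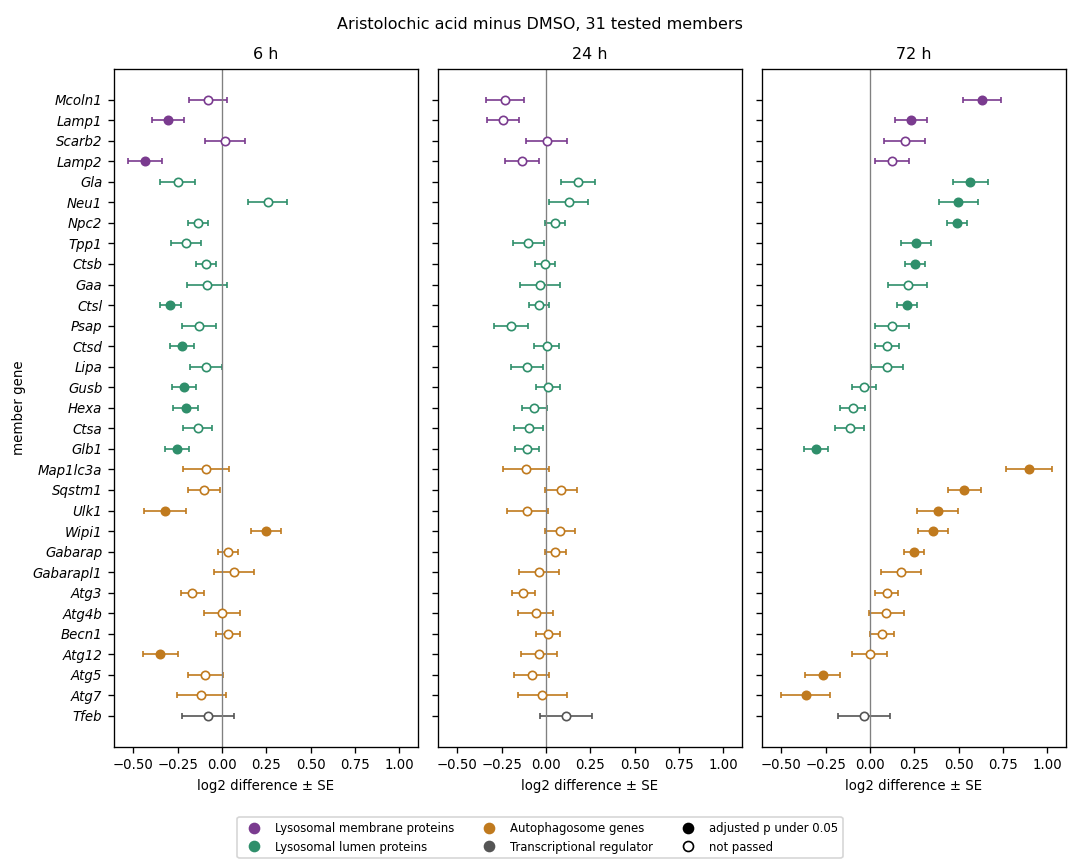
Log2 difference between aristolochic acid and DMSO (x axis, ± standard error of the fit, 3 arrays a group) for each of the 31 tested members (y axis, ordered within each class by the value at 72 h) at 6, 24 and 72 h. Filled points passed the test: 10 members at 6 h, none at 24 h and 16 at 72 h, with the filled lysosomal points left of 0 at 6 h and all but Glb1 right of 0 at 72 h.

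The lysosomal share called lower at 6 h was 38.9%, and their median log2 difference was -0.17, against 0.01 for all genes. The autophagosome shares at 6 h, 16.7% lower and 8.33% higher, were near those of all genes. At 24 h the background was 1.81% higher and 0.277% lower. The lysosomal share called higher at 72 h was 44.4% and the autophagosome share 41.7%, with median differences of 0.20 and 0.14 against 0.05 for all genes. Counted in either direction, 10 of the 31 members passed at 6 h, or 32.3%, beside 24.5% of all genes. At 72 h 16 of the 31 members passed, or 51.6%, beside 47.2% of all genes, so the share that changed was near the background. The shares whose groups did not overlap were 61.3% of members and 59.6% of all genes at 72 h, and 38.7% against 36.4% at 6 h. At 24 h, where no member was called, they were 32.3% of members and 19.5% of all genes.

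Of the 4 tested lysosomal membrane proteins, Lamp1 and Lamp2 were called lower at 6 h. Lamp2, an abundant heavily glycosylated protein of the lysosomal membrane that also serves chaperone-mediated autophagy, read 13.81, 13.76 and 13.23 on the AA arrays and 14.05, 14.05 and 14.01 on the DMSO arrays. The groups did not overlap and the third AA array was the lowest. Lamp2 fell by 0.44 ± 0.10 on the log2 scale (limma, adjusted p = 0.00393), and by 0.25 without AA 6 h replicate 3, still past the threshold. A further Lamp2 probe set also fell, with a difference of -0.29 ± 0.07.

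Lamp1, its paralogue in the same membrane, read 13.28, 13.34 and 12.92 with AA and 13.37, 13.59 and 13.50 with DMSO at 6 h. The groups did not overlap, and the difference was -0.31 ± 0.09 (limma, adjusted p = 0.0187). The call was lost without AA 6 h replicate 3 (-0.18), DMSO 6 h replicate 2 (-0.25) or DMSO 6 h replicate 3 (-0.30).

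By 72 h Lamp1 was higher with AA than with DMSO in the probe set used. It read 13.62, 13.79 and 13.82 with AA against 13.49, 13.47 and 13.58 with DMSO, a difference of 0.23 ± 0.09 (limma, adjusted p = 0.0417) between groups that did not overlap. This call was lost without AA 72 h replicate 2 (0.21), AA 72 h replicate 3 (0.19), DMSO 72 h replicate 1 (0.22) or DMSO 72 h replicate 2 (0.21). It was also lost when the probe sets of Lamp1 were averaged. Lamp2, at 14.88, 14.88 and 14.92 with AA and 14.77, 14.74 and 14.79 with DMSO, differed by 0.12 and did not pass.

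Mcoln1, the calcium release channel of the lysosomal membrane, had the largest difference among the lysosomal members at 72 h. At 24 h it read 9.0, 9.08 and 9.10 with AA and 9.33, 9.18 and 9.37 with DMSO, lower on every AA array without passing the test (-0.23). At 72 h the order had turned, with 9.41, 9.68 and 9.64 against 8.89, 8.95 and 9.0. Mcoln1 rose by 0.63 ± 0.11 at 72 h (limma, adjusted p = 7.65e-05). The change of its AA effect from 24 to 72 h was 0.86 ± 0.15 (limma, adjusted p = 0.000234). Mcoln1 passed in every alternative run at 72 h.

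Scarb2, the membrane receptor that carries glucocerebrosidase to the lysosome, did not follow. Its difference was 0.02 at 6 h, 0.00 at 24 h and 0.20 at 72 h, and none passed. Its level moved with time instead, from 10.61, 10.77 and 10.48 in DMSO at 24 h to 9.61, 9.73 and 9.47 at 72 h.

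**Figure D2:**
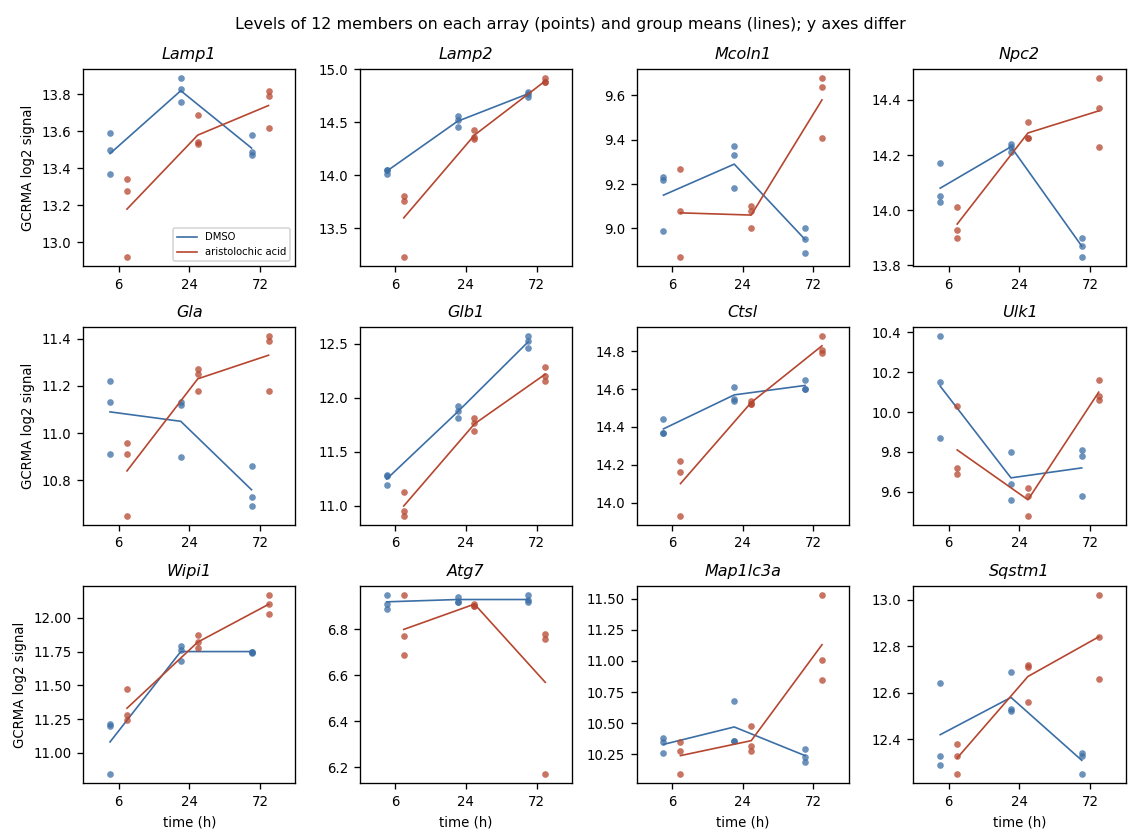
GCRMA log2 signal (y axis, scaled for each gene) of 12 members on every array (points) and as group means (lines) at 6, 24 and 72 h (x axis, evenly spaced) for aristolochic acid and DMSO. Mcoln1, Npc2, Gla, Map1lc3a and Sqstm1 separate at 72 h with AA above DMSO, Glb1 separates with AA below, and Lamp2 at 6 h has its lowest AA array at 13.23.

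The promoters were searched for the element named above. A RefSeq table (GRCr8) gave 300 bases, 250 before and 50 after the gene start, for 33 of the 38 members. The letters CACGTG, which read the same on both strands, occurred in 8 of these 33 promoters, beside 6.42% of all 33469 promoters of the table and 10.2% of those of the tested genes. The longer form TCACGTGA, which contains the shorter one and also reads the same on both strands, occurred in 5 of 33, beside 0.777% of all promoters and 1.99% of those of the tested genes. By class, 3 of 6 membrane protein promoters held the longer form, as did 1 of 14 lumen protein and 1 of 12 autophagosome promoters.

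Stretches of 5 promoters are shown to set members with the element beside a member that rose without it, 5′ to 3′ on the gene's own strand with CACGTG in capitals. The Mcoln1 stretch, chr12:6358148-6358267 on the plus strand, runs to base 10 of the transcript and holds 2 copies. The Lamp1 stretch, chr16:83075064-83075263 on the minus strand, holds 5 copies, 2 of them in the longer form. Ctsd, for the protease cathepsin D, has 2 copies in chr1:206968822-206968991 on the minus strand. Glb1, for lysosomal beta-galactosidase, has 1 copy in chr8:122963598-122963677 on the plus strand. Npc2, for the cholesterol carrier of the lysosomal lumen, has none in chr6:110149246-110149365 on the minus strand.
Mcoln1: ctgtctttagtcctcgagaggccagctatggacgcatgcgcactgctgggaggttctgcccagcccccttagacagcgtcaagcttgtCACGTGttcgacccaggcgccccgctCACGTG
Lamp1: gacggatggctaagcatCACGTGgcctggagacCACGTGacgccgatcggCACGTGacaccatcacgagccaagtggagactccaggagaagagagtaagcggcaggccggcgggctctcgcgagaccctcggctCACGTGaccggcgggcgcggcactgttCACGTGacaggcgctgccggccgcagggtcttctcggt
Ctsd: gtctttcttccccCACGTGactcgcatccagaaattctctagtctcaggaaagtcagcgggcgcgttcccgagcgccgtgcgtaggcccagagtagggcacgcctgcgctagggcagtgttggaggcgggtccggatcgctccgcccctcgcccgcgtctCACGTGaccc
Glb1: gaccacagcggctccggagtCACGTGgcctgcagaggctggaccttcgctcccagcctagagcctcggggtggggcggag
Npc2: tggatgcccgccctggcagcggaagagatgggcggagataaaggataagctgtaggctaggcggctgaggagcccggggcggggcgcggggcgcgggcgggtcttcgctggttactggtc

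Promoters with the element belonged both to members that rose at 72 h and to members that did not. Of the 11 members that rose at 72 h and had a promoter entry, 2 held CACGTG (Mcoln1 and Lamp1). Both also held the longer form. In Mcoln1 the CACGTG of the longer form starts at base 5 of the transcript, and the stretch shown stops just before its final A. Of the 15 tested members with an entry that did not rise, 5 held CACGTG and 2 the longer form. Among the 5 were Ctsd, with a difference of 0.10 that did not pass, and Glb1, which fell. A match is a description of these letters only, and its absence says only that they are not in this window.

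Among the lumen proteins, 5 of 14 fell at 6 h: Ctsl, Glb1, Ctsd, Gusb and Hexa. Ctsl, the cysteine protease cathepsin L, read 14.22, 14.16 and 13.93 with AA and 14.44, 14.37 and 14.37 with DMSO. The groups did not overlap, and Ctsl fell by 0.29 ± 0.06 (limma, adjusted p = 0.00221), a call kept when each 6 h array was left out in turn.

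Glb1 read 10.95, 11.13 and 10.91 with AA at 6 h and 11.28, 11.19 and 11.29 with DMSO. It fell by 0.25 ± 0.07 (limma, adjusted p = 0.0118), a call lost without AA 6 h replicate 3 (-0.21). Ctsd was lower by a difference of -0.23 and lost its call without AA 6 h replicate 1 (-0.21), AA 6 h replicate 3 (-0.22), DMSO 6 h replicate 2 (-0.22) or DMSO 6 h replicate 3 (-0.19). Gusb, beta-glucuronidase, had -0.21 and lost its call without AA 6 h replicate 1 (-0.19), AA 6 h replicate 3 (-0.16) or DMSO 6 h replicate 3 (-0.18). Hexa, a beta-hexosaminidase subunit, had -0.21 and lost its call without AA 6 h replicate 3 (-0.12) or any of DMSO 6 h replicates 1 to 3 (-0.20, -0.22 and -0.19). Neu1, the lysosomal sialidase, was the exception in sign, higher on every AA array at 9.30, 9.39 and 9.62 against 9.21, 9.21 and 9.11, with a difference of 0.26 that did not pass.

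The count of lysosomal genes lower at 6 h depended on the arrays and on their scaling. It was 2 without AA 6 h replicate 3, 3 without DMSO 6 h replicate 3, 4 without DMSO 6 h replicate 2 and 11 without AA 6 h replicate 2. With each array centred on its median it was 2, with 1 higher, and over all genes that scaling gave 18.9% higher and 7.08% lower. With the 6 h arrays fitted alone it was 0, and 3.19% of all genes were then called lower. None of the 10 members called at 6 h kept its call in every alternative.

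At 24 h no member passed. Among the 18 lysosomal genes 2 were lower and none higher at an unadjusted p under 0.05, and of the 12 autophagosome genes neither direction had any; 11.2% of all genes lay under that p. The change of the AA effect from 6 to 24 h likewise passed for no member. At an unadjusted p under 0.05, 6 lysosomal genes and 1 autophagosome gene were higher in it and none lower. Of all genes, 20% lay under that p in either direction. Over all genes 1.45% passed as higher and 0.976% as lower in that change.

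At 72 h, 6 of 14 lumen proteins rose and 1 fell. Npc2, which hands cholesterol to the lysosomal membrane, read 14.23, 14.48 and 14.37 with AA and 13.90, 13.83 and 13.87 with DMSO. The groups did not overlap and the DMSO arrays lay within 0.07 of each other. Npc2 rose by 0.49 ± 0.06 (limma, adjusted p = 9.32e-07), and its AA effect changed by 0.44 ± 0.08 from 24 to 72 h (limma, adjusted p = 0.000384).

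Gla, the alpha-galactosidase whose loss causes Fabry disease, read 11.18, 11.39 and 11.41 with AA at 72 h and 10.86, 10.73 and 10.69 with DMSO. It rose by 0.56 ± 0.10 (limma, adjusted p = 9.41e-05), and by 0.36 when its probe sets were averaged. Neu1 read 8.88, 9.20 and 9.27 against 8.66, 8.57 and 8.63 and rose by 0.50 ± 0.11 (limma, adjusted p = 0.000959), and its second probe set rose by 0.78 ± 0.15. Over time the AA means of Neu1 did not increase, at 9.43, 9.25 and 9.12 at 6, 24 and 72 h. In all 3 genes every AA array lay above every DMSO array.

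Smaller rises were those of Tpp1, a tripeptidyl peptidase (0.26), Ctsb, the protease cathepsin B (0.25), and Ctsl (0.21). Ctsb read 14.31, 14.42 and 14.34 with AA and 14.13, 14.08 and 14.10 with DMSO, so the groups did not overlap. Tpp1 lost its call without AA 72 h replicate 3 (0.20) or DMSO 72 h replicate 3 (0.22).

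Glb1 went the other way at 72 h. It read 12.16, 12.29 and 12.20 with AA and 12.57, 12.46 and 12.53 with DMSO, and fell by 0.30 ± 0.07 (limma, adjusted p = 0.0011) between groups that did not overlap. Over time its AA means increased, at 11, 11.76 and 12.22 at 6, 24 and 72 h. The remaining lumen genes did not pass at 72 h, with differences from -0.12 for Ctsa, the carboxypeptidase that shields Neu1 and Glb1, to 0.21 for Gaa, the acid alpha-glucosidase that degrades glycogen.

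Among autophagosome genes at 72 h, the LC3 gene stood first. Map1lc3a, which encodes an LC3 protein that is lipidated onto the growing membrane, read 10.85, 11.53 and 11.01 with AA and 10.29, 10.23 and 10.19 with DMSO. Every AA array was above every DMSO array, and the second AA array was the highest. Map1lc3a rose by 0.89 ± 0.13 (limma, adjusted p = 1.4e-05), a ratio of about 1.86. At 24 h the groups had read 10.48, 10.32 and 10.28 with AA and 10.36, 10.36 and 10.68 with DMSO, and the change of effect from 24 to 72 h was 1.01 ± 0.18 (limma, adjusted p = 0.000357).

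Gabarap, of the related GABARAP family, read 13.51, 13.52 and 13.52 against 13.23, 13.25 and 13.33 and rose by 0.25 ± 0.06 (limma, adjusted p = 0.00148). Its relative Gabarapl1 read 11.24, 11.79 and 11.40 against 11.29, 11.23 and 11.38, groups that overlapped, with a difference of 0.17 that did not pass. A second Gabarapl1 probe set fell, at -0.30 ± 0.10.

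The cargo receptor Sqstm1 (p62), which links ubiquitinated cargo to LC3 and is itself degraded by autophagy, read 12.66, 13.02 and 12.84 with AA and 12.34, 12.25 and 12.33 with DMSO at 72 h. The groups did not overlap, and Sqstm1 rose by 0.53 ± 0.09 (limma, adjusted p = 9.3e-05). Its other probe set, tested in the same way, differed by 0.03 at 72 h, and at 6 h it rose by 0.39 ± 0.13, where the first differed by -0.10. Averaged over its probe sets, Sqstm1 differed by 0.13 at 72 h and did not pass.

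Genes that start the autophagosome included Ulk1 and Wipi1. Ulk1, the initiating kinase, read 9.69, 10.03 and 9.72 with AA and 9.87, 10.15 and 10.38 with DMSO at 6 h, overlapping groups with a difference of -0.32 ± 0.12 (limma, adjusted p = 0.0495). That call was lost without AA 6 h replicate 1 (-0.26), AA 6 h replicate 3 (-0.27), DMSO 6 h replicate 2 (-0.31) or DMSO 6 h replicate 3 (-0.20). At 72 h Ulk1 read 10.08, 10.16 and 10.06 with AA and 9.58, 9.78 and 9.81 with DMSO. The groups no longer overlapped, and it rose by 0.38 ± 0.12 (limma, adjusted p = 0.011), a call lost without DMSO 72 h replicate 1 (0.31). Its other probe set differed by -0.12 at 72 h and did not pass.

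Wipi1, which binds the phosphoinositide of the forming membrane, was the member that rose at both ends. At 6 h it read 11.47, 11.24 and 11.28 with AA and 11.20, 11.21 and 10.84 with DMSO, and rose by 0.25 (limma, adjusted p = 0.0402). The call was lost without AA 6 h replicate 1 (0.18), AA 6 h replicate 3 (0.27) or DMSO 6 h replicate 3 (0.13). At 72 h it read 12.10, 12.03 and 12.17 against 11.75, 11.74 and 11.75 and rose by 0.35 ± 0.09 (limma, adjusted p = 0.00201). Becn1, the Beclin 1 gene, differed by 0.03, 0.01 and 0.07 at 6, 24 and 72 h and passed at none.

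The conjugation genes, whose products attach LC3 and GABARAP proteins to lipid, were not called higher with AA than with DMSO at any time, and none was higher at an unadjusted p under 0.05. Atg12, the ubiquitin-like protein joined to Atg5, read 10.19, 10.42 and 10.17 with AA and 10.38, 10.59 and 10.85 with DMSO at 6 h, overlapping in the second AA array. It fell by 0.35 ± 0.10 (limma, adjusted p = 0.0171), a call lost without AA 6 h replicate 3 (-0.30) or DMSO 6 h replicate 3 (-0.23).

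At 72 h Atg5 read 9.26, 9.36 and 9.25 with AA and 9.51, 9.69 and 9.46 with DMSO, and fell by 0.27 ± 0.10 (limma, adjusted p = 0.0315). The call was lost without AA 72 h replicate 1 (-0.25), AA 72 h replicate 3 (-0.25), DMSO 72 h replicate 1 (-0.29) or DMSO 72 h replicate 2 (-0.20). Atg7, the activating enzyme of both conjugation systems, read 6.76, 6.17 and 6.78 against 6.95, 6.92 and 6.93. Its difference was -0.36 ± 0.14 (limma, adjusted p = 0.0383), with the second AA array far below the others. The call was lost without AA 72 h replicate 2 (-0.16) or any of DMSO 72 h replicates 1 to 3 (-0.35, -0.37 and -0.36). Atg3, the conjugating enzyme, and Atg4b, the protease that primes LC3, differed by less than 0.20 at each time and did not pass.

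The number of autophagosome genes lower at 72 h was 2 with all arrays, 0 without DMSO 72 h replicate 1 or 2, and 1 without any of the other 4 arrays at 72 h. At 6 h the 2 lower calls became 0 without AA 6 h replicate 3 or DMSO 6 h replicate 3 and 1 without DMSO 6 h replicate 2. The 1 higher call became 0 without AA 6 h replicate 1, AA 6 h replicate 3 or DMSO 6 h replicate 3.

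Probe sets of the same gene disagreed most among these conjugation genes. Of the 31 tested members, 14 had 16 other probe sets that passed the filter, tested among 16253 probe sets. For Atg12 at 72 h the probe set used differed by 0.00, while the other 2 both fell by 1.08 on the log2 scale. The other Atg7 probe set fell by 2.07 ± 0.30 (limma, adjusted p = 2.38e-05). For Atg5 the other 2 differed by 0.05 and -0.06 and did not pass. Of the 10 other probe sets of members called at 72 h, 8 had the sign of the probe set used, and 2 (those of Neu1 and Atg7) passed in the same direction. Averaging the probe sets of a gene ended the 72 h calls of Lamp1 (0.06), Ctsl (0.16), Gabarap (0.21), Ulk1 (0.13) and Atg5 (-0.09) as well as that of Sqstm1. Which transcript regions these probe sets read was not analysed here.

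**Figure D3:**
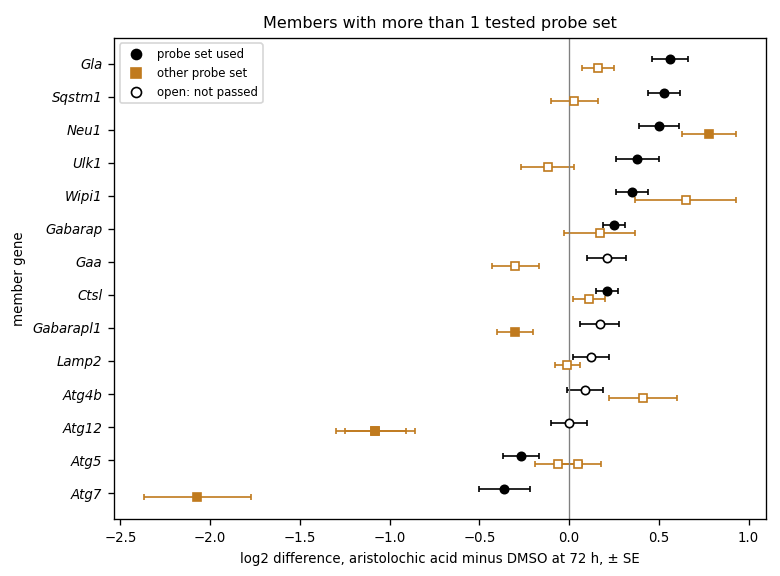
Log2 difference between aristolochic acid and DMSO at 72 h (x axis, ± standard error, 3 arrays a group) for each tested probe set of the 14 members with more than 1 (y axis); circles are the probe sets used, squares the others, filled where they passed. Atg12 and Atg7 have other probe sets at -1.08 and -2.07, far left of the probe sets used, and the squares of Sqstm1 and Ulk1 lie near 0.

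Tfeb itself did not pass in any comparison. It read 6.70, 6.89 and 6.85 with AA and 6.97, 6.82 and 6.76 with DMSO at 72 h, and its AA differences were -0.08, 0.12 and -0.03 at 6, 24 and 72 h. Activity of TFEB is set largely by its phosphorylation and location, which arrays do not measure. Its relatives moved apart from each other. Mitf read 4.91, 4.07 and 4.50 with AA and 6.99, 6.67 and 6.69 with DMSO at 72 h. It fell by 2.29 ± 0.18 (limma, adjusted p = 4.07e-09). These AA arrays lay close to the filter at 4, so the size of the fall rests partly on dim signals. Mitf had also fallen at 6 h, by 0.97 ± 0.18 (limma, adjusted p = 0.00149). Tfe3, named after its values were seen, read 9.16, 9.33 and 9.28 against 8.59, 8.55 and 8.56 and rose by 0.69 ± 0.09, and by 0.22 with its probe sets averaged.

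Pathway genes outside the member list were grouped in 7 further lists with 115 tested genes. At 72 h, 37 rose, 16 fell and 62 did not pass, or 32.2% higher and 13.9% lower, near the 27.4% and 19.8% of all genes. At 6 h, 3 rose and 19 fell, or 2.61% and 16.5%, beside 12.1% and 12.4% of all genes. These 6 h counts are with all arrays. Without AA 6 h replicate 3, 4.68% of all genes were called higher and 5.3% lower. At 24 h none passed, while 1 was higher and 8 lower at an unadjusted p under 0.05, beside 11.2% of all genes in either direction. The lists were made with earlier results of these data known, and their counts are descriptions.

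Of the 17 tested subunits of the vacuolar ATPase, the proton pump of the lysosome, 9 rose at 72 h, with a median difference of 0.31. None fell, or was lower at an unadjusted p under 0.05. That is 52.9% higher, beside 27.4% higher and 19.8% lower over all genes. Atp6v0b, a subunit of the membrane sector, read 10.91, 11.29 and 11.21 with AA and 9.58, 9.53 and 9.65 with DMSO. It rose by 1.55 ± 0.13 (limma, adjusted p = 1.08e-08). Atp6v0a1, another membrane subunit, read 7.92, 8.03 and 7.53 against 6.13, 6.41 and 6.61 and rose by 1.45 ± 0.21. Atp6v1d, of the stalk that couples the sectors, read 14.01, 14.27 and 14.11 against 12.82, 12.84 and 12.85 and rose by 1.29 ± 0.08. Atp6v0c, of the proton-carrying ring, rose by 0.74 ± 0.06. In each of these genes the groups did not overlap. At 6 h only Atp6v1f of the 17 passed (0.21), or 5.88%, beside 12.1% higher over all genes. Its call was lost without any of AA 6 h replicates 2 and 3 (0.22 and 0.16) or DMSO 6 h replicates 2 and 3 (0.22 and 0.16).

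Of 20 other lysosomal lumen genes, 5 rose and 5 fell at 72 h, near the shares of all genes (27.4% and 19.8%). Arsb, the arylsulfatase of dermatan sulfate breakdown, read 8.81, 8.48 and 8.63 with AA and 10.04, 10.14 and 10.18 with DMSO, and fell by 1.48 ± 0.11. Gm2a, the activator protein of GM2 ganglioside breakdown, rose by 0.69 ± 0.09. Ctso, the protease cathepsin O, fell by 0.91 ± 0.19 at 72 h and by 0.84 ± 0.19 at 6 h. Ctsf, the protease cathepsin F, had 0.67 and lost its call without AA 72 h replicate 2 (0.54), AA 72 h replicate 3 (0.58), DMSO 72 h replicate 1 (0.70) or DMSO 72 h replicate 2 (0.62). At 6 h, 6 of the 20 fell, or 30%, beside 12.4% of all genes, and none rose, also at an unadjusted p under 0.05. The 6 h calls of Ctso and of the receptor gene Bnip3 were lost when the 6 h arrays were fitted alone.

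Of 12 other membrane proteins 3 rose and 1 fell at 72 h, or 25% and 8.33%, beside 27.4% and 19.8% of all genes. Cd68, a LAMP-family glycoprotein best known from macrophages, read 5.26, 5.44 and 4.99 with AA and 3.63, 3.16 and 3.21 with DMSO. Every DMSO array lay below the filter at 4, and against that value Cd68 was at least 2.35-fold higher with AA (limma, adjusted p = 0.000214 for the measured signals). Of the 7 leukocyte markers, Ptprc, Csf1r, Adgre1, Itgam, Lyz2 and Tyrobp lay between 2.03 and 2.77 in all groups. Cd14, at 11.2 or above in every group, was called higher at 6 h (0.29) and differed by 0.03 at 72 h. Tmem192 rose by 0.56, the sialic acid exporter Slc17a5 rose by 0.54 and Tmem106b fell by 0.46. Among 9 sorting genes 2 rose and 1 fell at 72 h, or 22.2% and 11.1%, beside the same shares of all genes. Gnptab, of the enzyme that makes the mannose 6-phosphate tag, rose by 0.72 ± 0.07, its partner Gnptg had 0.28 and the receptor M6pr -0.16. Gnptg lost its call without AA 72 h replicate 2 (0.20), AA 72 h replicate 3 (0.27), DMSO 72 h replicate 1 (0.28) or DMSO 72 h replicate 2 (0.22). M6pr lost it without AA 72 h replicate 2 (-0.11) or DMSO 72 h replicate 1 (-0.15).

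Of 28 other autophagosome genes 9 rose and 3 fell at 72 h, or 32.1% and 10.7%, beside 27.4% and 19.8% of all genes. Atg10, the enzyme that conjugates Atg12, read 2.80, 2.80 and 2.20 with AA and 6.90, 7.11 and 6.85 with DMSO. Every AA array lay below the filter at 4, and against that value Atg10 was at least 7.76-fold lower with AA (limma, adjusted p = 5.59e-10 for the measured signals). Uvrag, a partner of Beclin 1, fell by 0.67 ± 0.09. Rubcn, an inhibitor of the same complex, rose by 0.60 ± 0.09 and the fusion protein Snap29 by 0.56 ± 0.10; with probe sets averaged these were 0.29 and 0.30. Of 7 other receptors 4 rose and 1 fell at 72 h, or 57.1% and 14.3%, beside the same shares of all genes. Bnip3, a mitophagy receptor, rose by 0.71 ± 0.16 at 6 h and by 0.51 ± 0.16 at 72 h. Without AA 6 h replicate 3 the rise at 6 h was 0.43, and without AA 72 h replicate 2 the 72 h call was lost (0.44). Tollip had 0.49 and Optn 0.35 (-0.23 and 0.18 with probe sets averaged, neither past the threshold), and the mitophagy receptor Fundc1 -0.38. Fundc1 lost its call without AA 72 h replicate 1 (-0.31), AA 72 h replicate 2 (-0.32), DMSO 72 h replicate 1 (-0.34) or DMSO 72 h replicate 3 (-0.36).

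Of 22 regulators upstream of the pathway 5 rose and 5 fell at 72 h, or 22.7% each way, near the shares of all genes. Sesn2, a leucine sensor that restrains mTORC1, read 11.56, 11.44 and 11.52 with AA and 9.11, 9.25 and 9.20 with DMSO. It rose by 2.32 ± 0.13 (limma, adjusted p = 1.88e-11), the largest rise among the 115 pathway genes. Rptor, the scaffold of mTORC1, read 6.80, 6.66 and 6.07 against 7.80, 8.0 and 7.79 and fell by 1.35 ± 0.17. Prkaa2, a catalytic subunit of the energy sensor AMPK, rose by 1.05 ± 0.16. At 6 h 6 of the 22 fell, or 27.3%, beside 12.4% of all genes, and none rose, with 1 higher at an unadjusted p under 0.05. Among the 6 were Fnip1 (-0.56) and the mTORC1 inhibitor Tsc1 (-0.53, and -0.16 with its probe sets averaged).

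Among the members, the decreases at 72 h were in the longest genes, in the probe sets used. By the span of the gene in RefSeq (GRCr8), the 3 longest of the 31 tested members were Atg7 at 207.5 kb, Atg5 at 91.0 kb and Glb1 at 72.6 kb, against a member median of 20.9 kb. These were the 3 members that fell in the probe sets used. With other probe sets the pattern differed: both other probe sets of Atg12 (10.5 kb) were called lower, at -1.08 each. Atg5 lost its call when its probe sets were averaged. Over the members and pathway lists together, 7 of 146 tested genes exceeded 150 kb. Of the 7, Rptor (298.5 kb), Atg10 (289.8 kb), Uvrag (257.8 kb), Mitf (212.1 kb), Atg7 and Arsb (159.3 kb) fell, and Ambra1 (189.3 kb) rose by 0.52. The next longest list genes, of 115.6, 109.5 and 105.7 kb, differed by 0.15, -0.24 and -0.07, and only the second of them passed. Shorter pathway genes were called lower too, among them Ctso (23.5 kb, -0.91), Tmem106b (19.4 kb, -0.46) and Fundc1 (16.7 kb, -0.38). Over all 9011 tested genes with a span, 625 exceeded 150 kb, and 71.8% of those were called lower and 4.64% higher at 72 h. The rank correlation of span with the 72 h difference was -0.48 across the 31 members and -0.26 across all tested genes; these are across genes of the same arrays, which are not independent replicates.

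**Figure D4:**
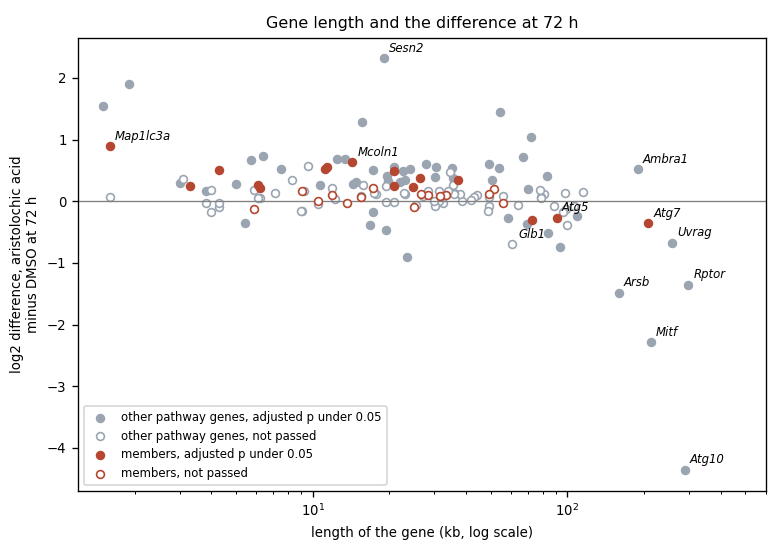
Log2 difference between aristolochic acid and DMSO at 72 h (y axis) against the length of the gene in kb (x axis, log scale) for the 31 tested members and 115 other pathway genes, filled where they passed the test. In the probe sets used, the 3 members that fell are the 3 longest, and among genes over 150 kb only Ambra1 lies above 0.

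Of 3 controls of RNA quality, the beta-actin one differed most between the treatments at 72 h. The log2 signal of its 3′ probe set exceeded that of the 5′ one by 1.85 to 2.16 on the AA arrays and by 1.29 to 1.45 on the DMSO arrays. The same difference for GAPDH was -0.12 to -0.04 with AA and -0.28 to -0.13 with DMSO, and for hexokinase the groups overlapped, at 1.10 to 1.67 and 0.92 to 1.29. At 6 h the beta-actin ranges were 0.98 to 1.27 and 1.14 to 1.17. Single cell type markers also differed at 72 h. Krt8 (0.55) and Acta2 (0.74) were called higher with AA, and Col3a1 (-0.32), the proximal tubule gene Aqp1 (-2.33) and the endothelial gene Tek (-2.02) lower. The markers of a list did not move together: Col1a1 (0.47), Col1a2 (-0.28), Tjp1 (-0.095) and the proximal tubule gene Ggt1 (-0.045) did not pass. The endothelial markers Pecam1 and Kdr lay between 2.12 and 2.28 in all groups. The summed signal of the fibroblast markers, as log2, was 14.37 to 14.62 with AA and 14.67 to 14.83 with DMSO. That of the proximal tubule markers was 6.77 to 6.86 and 8.58 to 8.66. At 72 h the brightest marker, Col3a1 and Aqp1 respectively, weighed most in each sum, so the sums do not speak for the other markers. At 6 h Ggt1 (1.27), Krt8 (0.50) and Cd14 (0.29) were called higher, while Aqp1 (-0.002) and Tjp1 (0.09) did not pass. The part of these values in the members' results was not tested. The arrays read whole cultures, so fewer cells of a kind and less RNA per cell cannot be told apart.

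In DMSO the genes moved with time as well, and the treatment differences sit on that course. From 6 to 24 h, 12 of 18 lysosomal genes rose and none fell, with 0 lower at an unadjusted p under 0.05 as well. That is 66.7% higher, beside 28.3% of all genes higher and 30.5% lower, and a median change of 0.32. Averaging probe sets ended the calls of Lamp1 (0.12) and Lamp2 (0.19) in this change and, among the autophagosome genes below, of Wipi1 (0.21). Gaa read 11.14, 11.05 and 11.12 at 6 h and 11.82, 11.81 and 11.56 at 24 h and rose by 0.63. The carboxypeptidase Ctsa rose by 0.63, Glb1 by 0.62, Lamp2 by 0.47 and Ctsd by 0.47. Of the other lumen genes, 17 of 20 rose and 1 fell, led by Ctso (1.35) and the iduronidase Idua (1.25).

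Of the 12 autophagosome genes, 2 rose and 5 fell from 6 to 24 h, or 16.7% and 41.7%, beside 28.3% and 30.5% of all genes. Wipi1 read 11.20, 11.21 and 10.84 at 6 h and 11.68, 11.76 and 11.79 at 24 h and rose by 0.66. Gabarapl1 had 0.34 and lost its call without DMSO 6 h replicate 1 (0.27) or DMSO 24 h replicate 3 (0.24). Without DMSO 6 h replicate 1 only 1 autophagosome gene was called higher. The kinase gene Ulk1 fell by 0.47, Atg4b by 0.50, Atg12 by 0.50, Atg5 by 0.40 and Atg3 by 0.22.

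**Figure D5:**
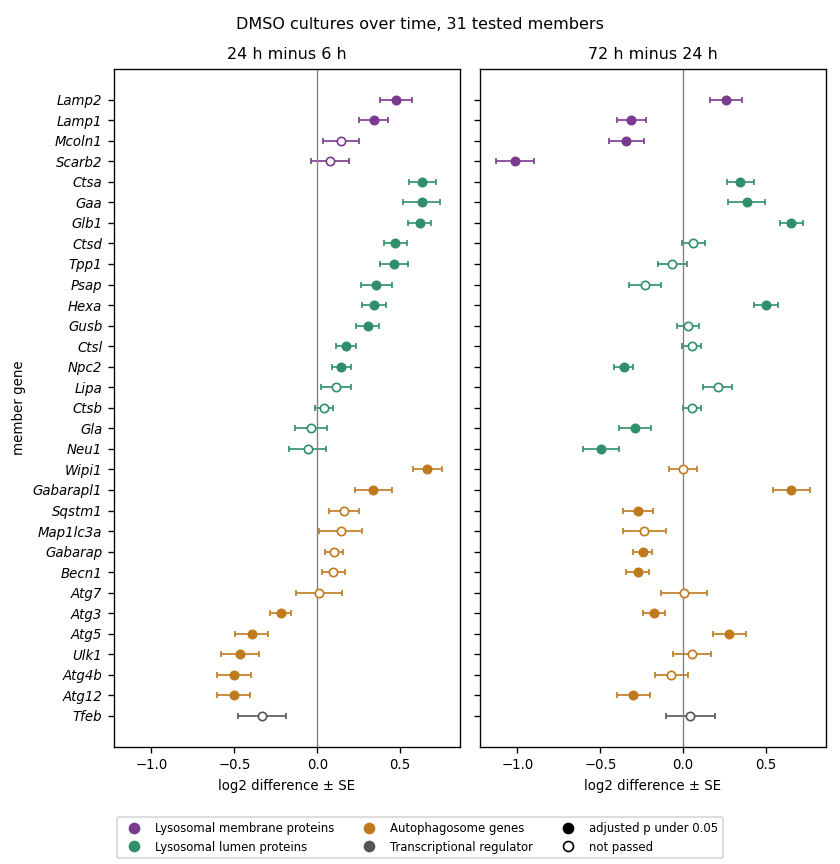
Log2 change in DMSO cultures (x axis, ± standard error, 3 arrays a group) from 6 to 24 h and from 24 to 72 h for each of the 31 tested members (y axis, ordered within each class by the first change). From 6 to 24 h the filled lysosomal points all lie right of 0, and from 24 to 72 h they lie on both sides, from Scarb2 at -1.02 to Glb1 at 0.65.

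From 24 to 72 h in DMSO the lysosomal genes divided, 5 higher and 6 lower, beside 17.2% and 17.1% of all genes. Glb1 rose by 0.65, from 11.81, 11.88 and 11.93 to 12.57, 12.46 and 12.53, and Hexa rose by 0.50. Gaa had 0.38 and Lamp2 0.26. Gaa lost its call without DMSO 24 h replicate 3 (0.30) or DMSO 72 h replicate 3 (0.35), and Lamp2 lost it without any of the 6 arrays. Scarb2 fell by 1.02, Neu1 by 0.50, Npc2 by 0.36 and Lamp1 by 0.31. Mcoln1 had -0.34 and lost its call without DMSO 24 h replicate 1 (-0.32), DMSO 24 h replicate 3 (-0.30) or DMSO 72 h replicate 1 (-0.31). The 5 higher calls became 3 without DMSO 24 h replicate 3 or DMSO 72 h replicate 3.

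Of the autophagosome genes 2 rose and 5 fell from 24 to 72 h, or 16.7% and 41.7%, beside 17.2% and 17.1% of all genes. Gabarapl1 rose by 0.65 and Gabarap fell by 0.24. The 2 higher calls became 1 without any DMSO 24 h array or without DMSO 72 h replicate 1 or 2. The 5 lower calls became 3 without DMSO 24 h replicate 1 or 3 or DMSO 72 h replicate 1 or 2, and 2 without DMSO 72 h replicate 3. Of 17 proton pump subunits 10 fell, or 58.8%, beside 17.1% of all genes, among them Atp6v0a1 (-0.89) and Atp6v0a2 (-0.78). None rose, also at an unadjusted p under 0.05. These comparisons share their DMSO arrays with the AA comparisons, so their values are set side by side only: Npc2 changed by -0.36 in DMSO from 24 to 72 h and differed by 0.49 between AA and DMSO at 72 h, Neu1 by -0.50 and 0.50, Mcoln1 by -0.34 and 0.63, and Atp6v0a1 by -0.89 and 1.45.

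The AA effect itself changed from 24 to 72 h upward in 7 of 18 lysosomal and 3 of 12 autophagosome genes, beside 18.7% of all genes upward and 13.7% downward. No lysosomal and no autophagosome gene passed as lower in this change, nor was any lower at an unadjusted p under 0.05, in the probe sets used. Other probe sets of the conjugation genes passed as lower, with -0.96 and -1.01 for Atg12 and -1.66 for Atg7. With probe sets averaged, 2 autophagosome genes were lower, Atg12 (-0.64) and Atg7 (-0.69). Mcoln1, Npc2 and Map1lc3a, given above, kept this call in every alternative run. Lamp1 changed by 0.47 and Sqstm1 by 0.45, and both lost the call only when their probe sets were averaged (0.14 and 0.12). The lysosomal count was 4 without DMSO 24 h replicate 2, AA 72 h replicate 3 or DMSO 72 h replicate 3.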

How the data were processed

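RNA of NRK-52E cultures was hybridised to 18 rat Affymetrix arrays, 3 for each of 6 groups. The authors deposited log2 signals for 31099 probe sets, summarised with GCRMA per the submitters' processing notes; other settings of that step are not stated there. Of these, 20832 probe sets carried 1 gene symbol, 436 several and 9831 none; 57 were control probe sets. No further normalization was applied: array medians lay between 4.03 and 4.20. The brightest probe set stood for a gene, and the tests ran on the 9016 of 14218 genes that reached a log2 signal of 4 on 3 arrays or more. GCRMA shrinks dim signals to a floor, so differences of dim genes are compressed.

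Group means were fitted with limma 3.58.1 in R 4.3.3 (lmFit and eBayes with intensity trend, 12 residual degrees of freedom, Benjamini-Hochberg adjustment, threshold 0.05), tested on simulated data. The members and lists were chosen with earlier results of these data known. Named genes were all members and, per pathway list, up to 4 called genes in AA comparisons and 2 in time comparisons, by absolute difference. Array precision is limited by 3 arrays a group. Alternatives changed scaling, filter, probe set choice, arrays fitted, replicate block, variance trend and each array left out.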

Additional observations from a re-analysis of the deposited data

Results flagged for a closer look

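The AA effect at 72 h differed from that at 24 h, by the limma interaction contrast with an adjusted p under 0.05, for the genes below; each value is the change of the log2 difference between AA and DMSO from 24 to 72 h. Among lysosomal members it was 0.86 for Mcoln1, 0.47 for Lamp1, 0.44 for Npc2, 0.38 for Gla, 0.36 for Tpp1, 0.26 for Ctsb and 0.25 for Ctsl. Among autophagosome members it was 1.01 for Map1lc3a, 0.49 for Ulk1 and 0.45 for Sqstm1. Ctsl kept its call without every array but AA 24 h replicate 1 (0.24), DMSO 24 h replicate 2 (0.23), AA 72 h replicate 3 (0.22) and DMSO 72 h replicates 2 and 3 (0.24 each). Tpp1 lost it without AA 24 h replicate 3 (0.32), DMSO 24 h replicates 1 or 2 (0.33 and 0.32), AA 72 h replicate 3 (0.30) or DMSO 72 h replicate 3 (0.32). Ulk1 lost it without replicate 1 of AA 24 h (0.45), DMSO 24 h (0.42) or DMSO 72 h (0.41), or without AA 72 h replicate 2 (0.46). Gla lost it without any of 9 of the 12 arrays, with values from 0.34 to 0.40.

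Among proton pump subunits the change was 1.77 for Atp6v0b, 1.55 for Atp6v0a1, 1.26 for Atp6v1d, 0.74 for Atp6v0c and 0.31 for Atp6v1f. Other lysosomal genes had 2.03 for Cd68, 0.87 for Idua, 0.84 for Gnptab, 0.69 for Gm2a, 0.68 for Slc17a5, 0.48 for Tmem192, -0.27 for Tmem106b and -1.35 for Arsb. Other autophagosome and receptor genes had 0.70 for Ambra1, 0.58 for Snap29, 0.56 for Rubcn, 0.49 for Tollip, -0.52 for Uvrag and -3.78 for Atg10. The AA arrays at 72 h for Atg10 and the DMSO arrays at 72 h for Cd68 lay below the filter at 4, so the sizes of these changes rest on dim signals. Regulators had 1.96 for Sesn2, 1.08 for Prkaa2, 0.78 for Tfe3, 0.52 for Fnip1, -1.01 for Rptor and -1.71 for Mitf. The AA arrays of Mitf at 72 h lay close to the filter at 4.

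No member's AA effect at 24 h differed from that at 6 h by the same test.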

How the results depend on the processing

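Over 330 gene results and 5472 recomputed values, 5097 stayed on the same side of the threshold, 320 lost the call and 53 gained it. Another 2 changed sign with a call in the main or the alternative run. A change of sign without a call in either run was not counted as a move. The causes of these moves were not tested. Centring arrays on their medians gave 1 lysosomal gene higher and 2 lower at 6 h, 0 autophagosome genes lower at 6 h and at 72 h, 3 lysosomal genes higher in the change from 24 to 72 h, and 2 autophagosome genes lower from 24 to 72 h in DMSO. Quantile normalization gave 1 autophagosome gene lower at 6 h. Without the filter, counts were 0 autophagosome genes higher at 6 h, 1 lower at 72 h and 4 lysosomal genes higher in the change from 24 to 72 h. Averaging probe sets gave 0 autophagosome genes higher at 6 h, 2 higher at 72 h, 2 lower in the change from 24 to 72 h, and in DMSO from 24 to 72 h 3 lysosomal and 1 autophagosome gene higher; it turned the change of Atg12 to -0.64 and Tollip at 72 h to -0.23. With only the compared arrays fitted, 0 lysosomal genes were lower, 0 autophagosome genes higher and 0 lower at 6 h, and 1 lower at 72 h. Without the intensity trend, 0 autophagosome genes were higher and 1 lower at 6 h, and 3 lysosomal genes higher in the change from 24 to 72 h.

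Leaving out 1 array at a time, at 6 h 0 to 1 lysosomal genes were higher and 2 to 11 lower, and 0 to 1 autophagosome genes higher and 0 to 2 lower. At 72 h 6 to 8 lysosomal genes were higher, 4 to 6 autophagosome genes higher and 0 to 1 lower. The change from 6 to 24 h had 0 to 1 lysosomal genes higher and that from 24 to 72 h 4 to 9. In DMSO from 6 to 24 h 1 to 3 autophagosome genes were higher, and from 24 to 72 h 3 to 4 lysosomal genes were higher, 1 to 2 autophagosome genes higher and 2 to 4 lower. A replicate block was tried because groups share replicate numbers, although same-numbered AA and DMSO arrays correlated at only -0.156 to 0.155; within time it left 1 autophagosome gene lower at 6 h and 1 at 72 h, and over all arrays 8 lysosomal genes higher in the change from 24 to 72 h. Over all genes at 6 h, the share called lower was 3.19% with only the compared arrays and 5.3% without AA 6 h replicate 3. Signal near the floor limits what can be said of Cln3, Ctsc, Ctsh and Ctsz.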
